A study of Mus musculus with 30 samples.

Results

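Heat shock proteins and chaperonins were represented by 78 of the 12422 probe sets tested, which stood for 55 of 8251 named genes. Members were all probe sets whose single gene symbol belonged to the Hsp families (HSP90, HSP70, small HSP, and the mitochondrial chaperonin pair Hspd1 and Hspe1), to the Dnaja, Dnajb and Dnajc families, or to the Cct subunits with Tcp1; no measured value entered the choice. The families held 3 probe sets of HSP90 genes, 14 of HSP70 genes, 1 of the HSP70-binding protein Hspbp1, 6 of small HSP genes, 3 of the mitochondrial chaperonin, 14 of the cytosolic chaperonin TRiC, and 3, 14 and 20 of the DNAJA, DNAJB and DNAJC families. Hsp90ab1 and Dnajc6 had no probe set with a single symbol, and 2 probe sets that list Dnajc19 among several symbols were not members. The mean log2 intensity of 54 of the 78 members lay above the median over probe sets, 7.10.

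The samples were motoneurons taken by laser capture from the spinal cord of 5 adult, sham-operated mice with no genetic change stated. From each animal came 1 sample of the intermediolateral column (IML), which holds the autonomic preganglionic motoneurons, and 1 each of the lateral (LMN) and medial (MMN) pools of somatic motoneurons, which drive skeletal muscle. A sample pooled the RNA of 400 captures and was measured on 2 Affymetrix arrays after 2 rounds of amplification, so that 30 arrays gave 15 samples. All values below are log2 of the authors' normalized intensities averaged over the 2 arrays, n is the number of animals, and samples are named by animal number; intensities of different probe sets are not compared.

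Chaperones bind unfolded or partly folded proteins and release them for folding, transport or degradation. HSP70 proteins do this with J-domain proteins of the DNAJ families, which deliver clients and stimulate ATP hydrolysis, and HSP90 takes over many of the clients that HSP70 releases. Small HSPs hold clients without using ATP, the chaperonins TRiC and HSP60/HSP10 fold proteins inside closed chambers of the cytosol and of mitochondria, and the endoplasmic reticulum has its own HSP70 (Hspa5, BiP) and HSP90 (Hsp90b1, GRP94). Motoneurons are large cells with long axons, and mutations in several chaperones of the small HSP and DNAJ families cause inherited motor neuropathies.

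The arrays had median intensities between 131.7 and 145.9. Of 4 visceral motoneuron markers measured, Adcyap1, Penk and Tac1 were higher in IML than in somatic samples, in 5 of 5 animals each and with adjusted p-values of 0.000901, 0.00831 and 0.0397. Slc18a3, the vesicular acetylcholine transporter, was 7.15, 7.57, 7.08, 6.81 and 7.29 in IML of animals 1 to 5. It was 10.11, 7.12, 8.36, 8.49 and 9.59 in LMN and 9.87, 7.58, 7.40, 8.65 and 7.97 in MMN. The LMN sample of animal 2 and the MMN sample of animal 3 thus stood within the IML range of this marker. The MMN sample of animal 2 lay just above it. Slc18a3 is 1 of 5 motoneuron markers measured, and the others differed. For Nefh, LMN of animal 2 (12.10) and MMN of animal 3 (12.23) lay above the IML range, 11.30 to 11.97. For Ret they had 6.77 and 6.47 against 6.07 to 6.76 in IML, and for Prph 8.19 and 9.70 against 8.80 to 11.44. Isl1 was 5.46 and 5.36 against 5.45 to 6.13. Calls that change without the LMN sample of animal 2 or the MMN sample of animal 3 are given with and without it. The fits without that MMN sample were added after the data had been seen. All 11 meningeal and fibroblast markers had higher means in IML than in somatic samples; their summed intensity ran from 22017 to 30343 in IML, from 7890 to 20931 in LMN and from 10145 to 33474 in MMN. Among 11 markers of microglia and macrophages, IML exceeded somatic samples in 6 calls and LMN in 7, with summed intensities of 1967 to 3464 in IML, 1702 to 1978 in LMN and 1721 to 2551 in MMN. Against somatic samples 1 of 6 astrocyte, 1 of 7 endothelial and 1 of 8 oligodendrocyte markers were also called higher in IML, and none of the markers of these lists was called lower. The part of the microglia, astrocyte, endothelial and oligodendrocyte markers in the results below was not tested. In pooled captures, fewer cells of a type and less RNA per cell cannot be told apart.

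No chaperone probe set differed between IML and somatic samples, the mean of LMN and MMN, at a Benjamini-Hochberg adjusted p under 0.05 in limma (0 of 78, against 5.52% of all probe sets, of which 3.44% were higher and 2.09% lower in IML). At an unadjusted p under 0.05 there were 11 of 78, or 14.1%, against 20.7% of all probe sets. Hsp90b1 was the only member called higher in IML than in LMN (1 of 78, none called lower). At the unadjusted threshold there were 16 members, or 20.5% against 23.5% of all. Of all probe sets 8.98% were called in this comparison, 5.46% higher and 3.53% lower. Between IML and MMN the count was 0 of 78 (0.346% of all, with 0.233% higher and 0.113% lower, and 5 members at the unadjusted threshold in limma, or 6.41% against 12.3%), and between LMN and MMN it was also 0 of 78 (0.0564% of all, with 0.0242% higher and 0.0322% lower, and 10 members at the unadjusted threshold, or 12.8% against 11.6%). The differences were small: they ran from -0.56 for Hspb8 to 0.38 for Hspa1b between IML and somatic samples, with a median of -0.06 against -0.01 over all probe sets. For 70 of the 78 members the 95% confidence interval of this difference lay within 0.5 log2 units of 0, a 1.41-fold difference either way, as it did for 87.9% of all probe sets. Means were below 0 for 53 members and above 0 for 25, against 6656 below and 5766 above over all probe sets. With 1 probe set per gene, the brightest, 36 of 55 were below 0. Animal 3 had the lowest median over members, -0.14, with 63 of 78 below 0, whereas the medians of the other 4 animals lay between -0.04 and 0.00.

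**Figure D1:**
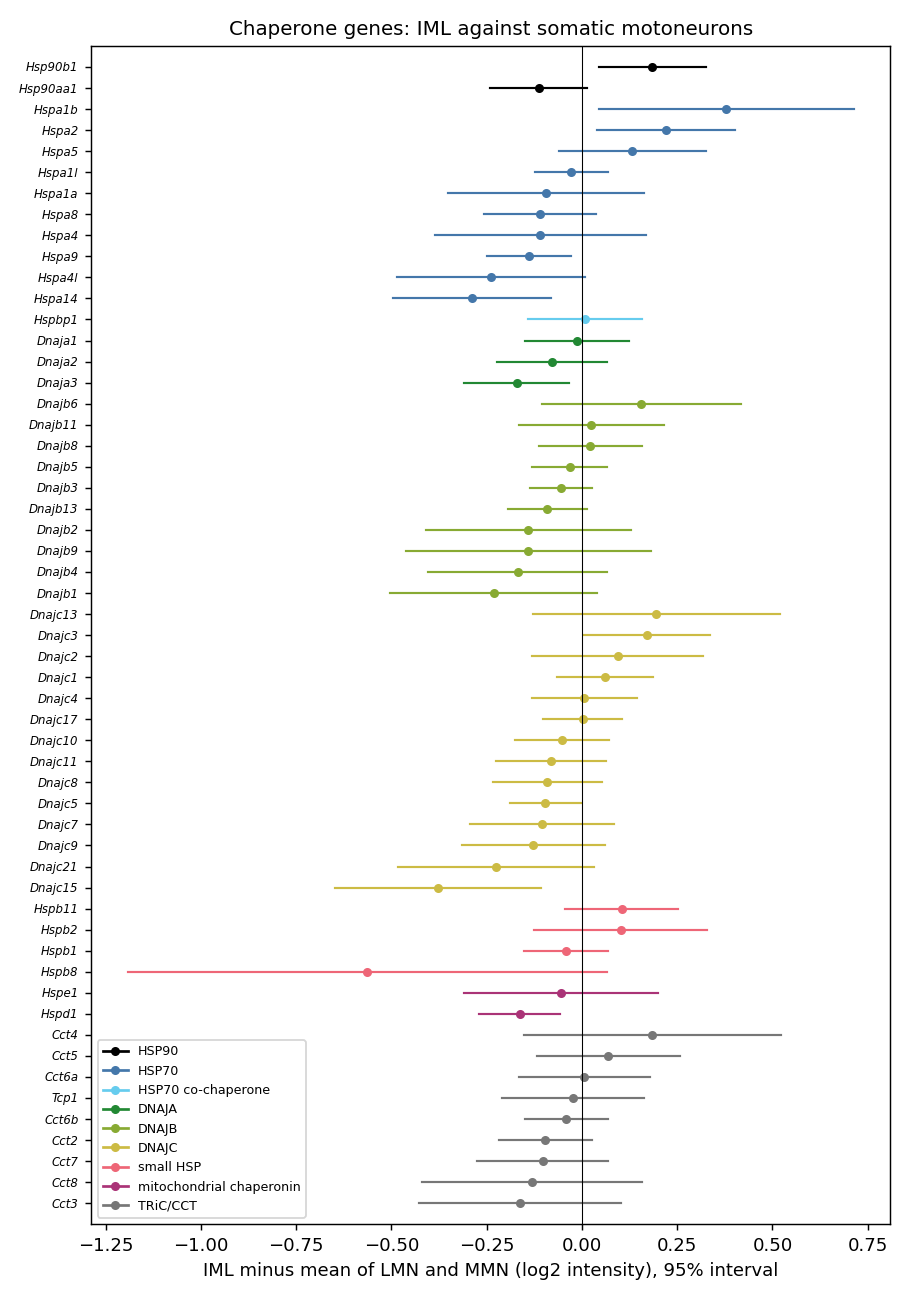
Difference in log2 intensity between IML and the somatic samples (LMN and MMN averaged) for the brightest probe set of each of the 55 genes, coloured by family; points are means over 5 animals and bars are 95% confidence intervals from limma. No adjusted p was under 0.05, 36 of the 55 points lie below 0, and Hspb8 has the widest interval shown, from -1.19 to 0.07.

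Among the chaperones of the endoplasmic reticulum, Hsp90b1 was higher in IML than in LMN. Hsp90b1, also known as GRP94, is the HSP90 of that compartment and folds secreted and membrane proteins such as integrins and Toll-like receptors. Its log2 intensity in animals 1 to 5 was 10.14, 10.64, 10.31, 9.98 and 10.55 in IML, 9.74, 10.44, 10.17, 9.74 and 10.02 in LMN, and 9.88, 10.47, 10.34, 10.01 and 10.58 in MMN. Within each animal IML stood above LMN, while the pools overlapped. The difference from LMN was 0.30 ± 0.07 (log2, SE, n = 5; 1.23-fold), and limma gave it an adjusted p of 0.0275. Against MMN it was 0.07 with an adjusted p of 0.787, and against both somatic pools 0.19 ± 0.06, higher in 5 of 5 animals, with an adjusted p of 0.119. LMN less MMN was -0.24, lower in 5 of 5 animals, with an adjusted p of 0.247. The call against LMN did not hold when any 1 of animals 1, 3, 4 or 5 was left out (adjusted p up to 0.0924), nor in either technical set of arrays alone (0.102 and 0.243); the difference stayed between 0.25 and 0.36 in these fits. Without the LMN sample of animal 2 it was 0.34 with an adjusted p of 0.0317, and without the MMN sample of animal 3 it was 0.30 with 0.0392. When the averaged meningeal and fibroblast marker level entered the fit as a covariate, it was 0.52 with an adjusted p of 0.942, a fit in which no probe set of the array was called between IML and LMN; the part of these markers in the result was not tested further.

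The other 6 members of this compartment were not called in any comparison of pools. With 5.52% of all probe sets called against somatic samples and 8.98% against LMN, few calls would fall among 6 genes. This grouping by compartment was made after the values had been seen. Hspa5 (BiP), the HSP70 of the endoplasmic reticulum, had values of 10.57, 11.08, 10.83, 10.12 and 10.62 in IML. In LMN it had 10.37, 10.93, 10.95, 10.16 and 10.28, and in MMN 9.99, 10.76, 11.04, 10.10 and 10.55. The pools overlapped over nearly their whole range, and the difference between IML and somatic samples was 0.13 ± 0.09 (adjusted p = 0.454 in limma). Dnajc3, a J-domain protein of the lumen also known as p58IPK, had a difference of 0.17 ± 0.08, higher in IML in 4 of 5 animals, with an adjusted p of 0.223. The difference was 0.06 for Dnajc1 and 0.02 for Dnajb11, and -0.05 for Dnajc10 and -0.14 for Dnajb9, all J-domain partners of BiP. Dnajb9, which assists degradation of misfolded proteins, was higher in LMN than in MMN in 5 of 5 animals, by 0.40, with an adjusted p of 0.388. Counted together, 5 of these 7 genes had a mean above 0 between IML and somatic samples, against 14 of the other 48 genes.

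A list of 28 other symbols for genes of endoplasmic reticulum folding and of the unfolded protein response had 24 measured genes. Of these, 4 were called higher and 1 was called lower in IML than in somatic samples, 20.8% against 5.52% of all probe sets. Against LMN the counts were again 4 called higher and 1 called lower, 20.8% against 8.98% of all probe sets. The list was chosen with earlier results of these data known and holds 1 probe set per gene, the brightest. These shares therefore describe the list and do not test it. Pdia6, a protein disulfide isomerase, had values of 8.10, 8.27, 8.05, 8.31 and 8.04 in IML, 7.70, 8.17, 7.88, 7.85 and 7.73 in LMN, and 7.83, 8.14, 7.88, 7.97 and 7.98 in MMN. IML was above both somatic pools within every animal, and the difference was 0.24 ± 0.05 (SE, n = 5; adjusted p = 0.0275 in limma). Creld2, another disulfide isomerase-like protein, had values of 6.84, 7.36, 6.89, 7.03 and 6.86 in IML, 6.49, 7.17, 6.45, 6.71 and 6.46 in LMN, and 6.77, 7.34, 6.86, 7.03 and 6.65 in MMN. Animal 2 was highest in each pool, and IML exceeded LMN in 5 of 5 animals. The Creld2 difference was 0.20 ± 0.04 against somatic samples (adjusted p = 0.0249) and 0.34 ± 0.05 against LMN (adjusted p = 0.00332); the latter kept an adjusted p of at most 0.0267 when each animal was left out, and had 0.0209 and 0.0813 in technical sets 1 and 2 alone. Edem1, which helps remove misfolded glycoproteins, differed by 0.17 ± 0.04 (adjusted p = 0.0359, but 0.0584 to 0.133 with 1 animal left out). Its values between 3.57 and 3.89 lay near the bottom of the array, its mean at percentile 3.53, so detection of the transcript is uncertain.

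Serpinh1 (HSP47), the chaperone of procollagen, had the largest difference of this list, 1.03 ± 0.22 (2.04-fold, adjusted p = 0.0247). It had values of 6.79, 8.75, 8.80, 7.98 and 7.87 in IML, 6.26, 7.81, 6.95, 6.16 and 6.28 in LMN and 7.06, 8.96, 7.38, 7.00 and 6.23 in MMN. The collagen gene Col1a1, 1 of the fibroblast markers, was also higher in IML (adjusted p = 0.0112), with 9.65, 10.29, 12.00, 11.15 and 10.75 in IML, 8.63, 9.31, 11.08, 8.52 and 8.93 in LMN and 9.10, 10.24, 11.01, 9.12 and 8.97 in MMN. With the meningeal and fibroblast covariate the Serpinh1 difference was -0.25 against somatic samples (adjusted p = 0.927). Atf6, a transcription factor that is released from the endoplasmic reticulum membrane when unfolded proteins accumulate, was lower in IML in 5 of 5 animals, by -0.46 ± 0.10 on the log2 scale (adjusted p = 0.0275). Values of Atf6 were 6.78, 6.93, 6.89, 7.51 and 7.19 in IML, 7.19, 7.51, 7.80, 7.60 and 7.45 in LMN and 7.35, 7.21, 7.79, 7.52 and 7.75 in MMN. These calls against somatic samples were fragile: with 1 animal left out in turn, Pdia6, Atf6 and Creld2 kept theirs in 1 of 5 fits and Serpinh1 in 2 of 5, with adjusted p-values up to 0.103, 0.118, 0.121 and 0.128. In technical sets 1 and 2 alone they were 0.0225 and 0.266 for Pdia6, 0.0629 and 0.0844 for Atf6, 0.127 and 0.226 for Creld2, 0.07 and 0.0117 for Serpinh1 and 0.235 and 0.13 for Edem1. Creld2 also lost its call with the animal as a random block (0.114), and without the MMN sample of animal 3 Pdia6 (0.0553), Atf6 (0.0561), Serpinh1 (0.0513) and Edem1 (0.0527) lost theirs. Without the LMN sample of animal 2, Atf6 had 0.0509 and Edem1 0.0618.

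**Figure D2:**
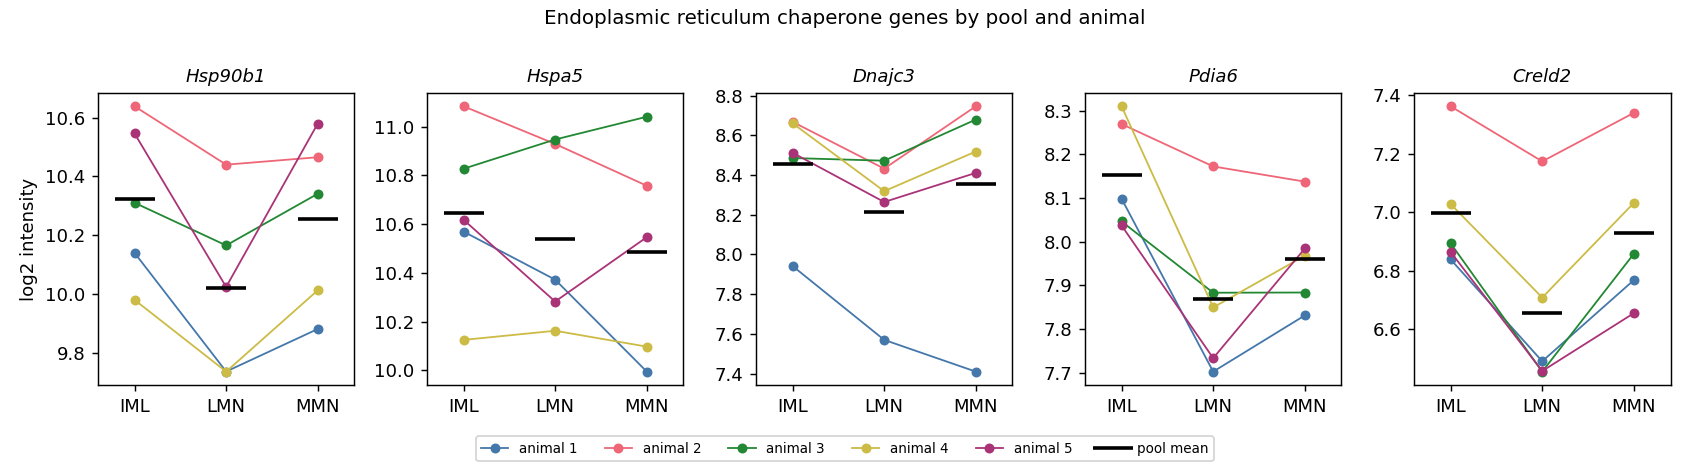
Log2 intensity of 3 chaperone genes and of 2 disulfide isomerase genes of the endoplasmic reticulum in the 3 pools; each line joins the samples of 1 animal and the black bar is the mean of 5 animals, with a separate axis range per gene. For Hsp90b1, Dnajc3, Pdia6 and Creld2 every line falls from IML to LMN, and for Dnajc3 animal 1 lies below the other animals in each pool.

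The promoters of these genes are shown because several share the endoplasmic reticulum stress element, CCAAT and CCACG with 9 bases of any kind between them, through which genes of this compartment are induced. In RefSeq windows of 300 bases on GRCm38.p6 (250 bases before to 50 after each start), searched on both strands, 39 of 32851 windows (0.119%) held it. Counted by gene, 37 of 27025 genes (0.137%) held it. Of the 55 member genes 47 had a window, and 3 held the element: Hsp90b1, Hspa5 and Dnajc3. Of the 24 genes of the endoplasmic reticulum list 20 had a window, and 4 held it: Calr, Canx, Creld2 and Pdia6. Those of the 3 members and of the 2 genes called higher in IML are printed 5′ to 3′ on the strand that reads CCAAT first, with 5 flanking bases on either side and the fixed bases in capitals. The copies of Hsp90b1 lie at chr10:86705633-86705661 on the minus strand and chr10:86705528-86705556 on the plus strand. Those of Hspa5 (chr2:34772020-34772048), Dnajc3 (chr14:118937822-118937850) and Pdia6 (chr12:17266486-17266514) are on the plus strand, and that of Creld2 (chr15:88819515-88819543) on the minus strand.
Hsp90b1 distal: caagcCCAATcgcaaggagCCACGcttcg
Hsp90b1 proximal: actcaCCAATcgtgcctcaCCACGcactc
Hspa5: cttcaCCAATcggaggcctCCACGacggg
Dnajc3: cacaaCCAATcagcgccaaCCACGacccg
Pdia6: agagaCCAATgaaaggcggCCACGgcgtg
Creld2: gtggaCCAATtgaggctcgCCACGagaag
At the base farthest from the start, the elements lie 212 and 107 bases before the start of Hsp90b1. This base is 65 before the start of Hspa5, 105 before that of Dnajc3, 98 before that of Pdia6 and 126 before that of Creld2. The proximal copy of Hsp90b1 and the copy of Creld2 run opposite to their genes. Their printed CCAAT begins 89 and 108 bases before the start. Of the 7 genes with the element, Pdia6 and Creld2 were called higher in IML than in somatic samples, and Hsp90b1, Pdia6 and Creld2 higher than in LMN. Over all probe sets 3.44% and 5.46% were called higher in these comparisons. The 7 genes come from lists chosen with earlier results known, and a link between element and calls was not tested. Hspa5 and Dnajc3 had positive differences that were not called, 0.13 and 0.17. Canx and Calr, the lectin chaperones of glycoproteins, had differences of -0.09 (adjusted p = 0.403) and -0.01 (adjusted p = 0.972), and the Calr probe set had a low mean of 4.56. The element is a match of letters and was not tested for use in these cells.

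The cytosolic HSP90 and HSP70 genes did not differ between pools at the adjusted threshold. Hsp90aa1, the stress-inducible cytosolic HSP90, had values of 12.23, 12.67, 12.56, 12.41 and 12.68 in IML, 12.70, 12.60, 12.72, 12.64 and 12.84 in LMN and 12.40, 12.50, 12.69, 12.43 and 12.71 in MMN. IML was below LMN in every animal but animal 2, and the difference from somatic samples was -0.11 ± 0.06 (adjusted p = 0.300). Hspa8 (HSC70), the constitutive cytosolic HSP70, had values of 10.74, 11.25, 10.75, 10.73 and 11.05 in IML, 11.05, 11.21, 11.04, 10.74 and 11.13 in LMN and 10.76, 11.05, 11.02, 10.93 and 11.19 in MMN. These ranges overlapped, and the difference was -0.11 ± 0.07 (adjusted p = 0.411). Hspa4, an HSP110-type nucleotide exchange factor, differed by -0.11 ± 0.13 (adjusted p = 0.704), and its 5 probe sets did not share a sign. Hspa14, a ribosome-associated HSP70, was lower in IML than the mean of the somatic pools in 5 of 5 animals, by -0.29 ± 0.09 (adjusted p = 0.10); without animal 2 the difference was -0.31 with an adjusted p of 0.0363. The HSP70-binding protein Hspbp1, which promotes nucleotide exchange, differed by 0.01 ± 0.07 (adjusted p = 0.973).

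The heat-inducible HSP70 genes Hspa1a and Hspa1b are near-identical copies, so their probe sets may share signal. Hspa1b had values of 6.81, 7.59, 7.58, 8.28 and 7.20 in IML, 6.89, 7.25, 6.78, 6.95 and 7.02 in LMN and 6.84, 7.82, 7.17, 7.23 and 7.19 in MMN. The difference between IML and somatic samples was 0.38 ± 0.15, higher in 4 of 5 animals (adjusted p = 0.180), and animal 4 contributed 1.19 to it against at most 0.61 in the others. Hspa1a had values of 8.64, 8.41, 8.40, 9.25 and 8.36 in IML, 8.50, 8.39, 8.48, 8.96 and 9.15 in LMN and 8.72, 8.70, 8.61, 8.87 and 8.69 in MMN, with a difference of -0.10 ± 0.12 (adjusted p = 0.725). The IML sample of animal 4 was the highest of the IML samples for both genes.

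Of 30 listed cytosolic co-chaperones and regulators, 22 were measured, and 20 of these had a mean below 0 between IML and somatic samples. Only Fkbp5 was called against somatic samples (1 lower of 22, 4.55% against 5.52% of all probe sets), and Fkbp5 and Chordc1 were called against LMN (2 lower of 22, 9.09% against 8.98%). Fkbp5, an HSP90 co-chaperone that dampens glucocorticoid receptor signalling and is itself induced by glucocorticoids, had values of 8.24, 8.68, 8.34, 8.67 and 8.51 in IML. It had 9.10, 8.81, 8.80, 8.77 and 9.44 in LMN and 8.87, 8.69, 8.78, 8.72 and 9.04 in MMN. All 5 IML samples lay below all 10 somatic samples, but by a very small margin. The highest IML value was 8.684 and the lowest somatic value, in MMN, was 8.692, both in animal 2. The difference was -0.41 ± 0.10 (log2, SE, n = 5; 1.33-fold, adjusted p = 0.0402 in limma), but the call held in only 2 of 5 fits with 1 animal left out (adjusted p up to 0.15). It was also lost in technical set 2 alone (0.164) and without the MMN sample of animal 3 (0.0773). Chordc1, an HSP90-binding protein, was lower in IML than in LMN by -0.45 ± 0.10 (adjusted p = 0.0177; up to 0.0617 without 1 animal, and 0.126 and 0.181 in technical sets 1 and 2 alone), with values of 10.45, 11.36, 11.44, 10.80 and 11.40 in IML and 11.40, 11.78, 11.83, 11.13 and 11.57 in LMN. Within each animal IML stood below LMN, although the pools overlapped.

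Among the small HSPs, Hspb8 had the widest spread. Hspb8 (HSP22) forms a complex with Bag3 and HSP70 that directs misfolded proteins to autophagy, and its mutations cause distal motor neuropathy. Its values were 9.18, 9.91, 9.65, 11.05 and 9.84 in IML, 11.18, 9.29, 10.34, 10.60 and 11.33 in LMN and 10.66, 10.17, 10.24, 10.61 and 10.45 in MMN. The highest IML sample was animal 4 and the lowest LMN sample was animal 2. The difference between IML and somatic samples was -0.56 ± 0.29 (1.48-fold lower, 95% interval -1.19 to 0.07, adjusted p = 0.299), lower in 3 of 5 animals. With 1 animal left out it ran from -0.82 to -0.27, the latter without animal 1 (adjusted p = 0.671), and without the LMN sample of animal 2 it was -0.70 with an adjusted p of 0.154. A second, dimmer probe set of Hspb8 differed by -0.30 (adjusted p = 0.267).

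Bag3, the partner of Hspb8, also had a wide spread. It had values of 8.36, 7.95, 8.57, 10.18 and 8.59 in IML, 10.40, 8.46, 9.43, 10.11 and 10.81 in LMN and 8.86, 8.74, 9.42, 9.34 and 9.58 in MMN. As for Hspb8, animal 4 was highest in IML, and animals 5, 1, 4, 3 and 2 followed each other from high to low in LMN, but the orders of the other samples differed: animal 2 was lowest in IML for Bag3 and next to highest for Hspb8. The order of Slc18a3 in LMN was animals 1, 5, 4, 3 and 2, whereas in IML animal 4 had the lowest Slc18a3. Other motoneuron markers went the other way in the IML sample of animal 4. Prph (11.44), Isl1 (6.13) and Ret (6.76) had their highest IML value there, and Nefh (11.72) was next to highest. The Bag3 difference was -0.78 ± 0.28 between IML and somatic samples (adjusted p = 0.128) and -1.11 ± 0.32 between IML and LMN (adjusted p = 0.0545). The latter was called in 5 of 17 other fits, among them the one without the LMN sample of animal 2 (-1.30, adjusted p = 0.0477), and ran from -1.41 to -0.84 with 1 animal left out (adjusted p from 0.0301 to 0.225). The 2 other genes with a mean above 6 that were grouped here by symbol alone, Hspb2 and Hspb11, differed by 0.10 each, with adjusted p-values of 0.650 and 0.441. Hspb1 (HSP27) had a low mean of 4.38 at which detection of the transcript is uncertain, and its difference was -0.04.

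**Figure D3:**
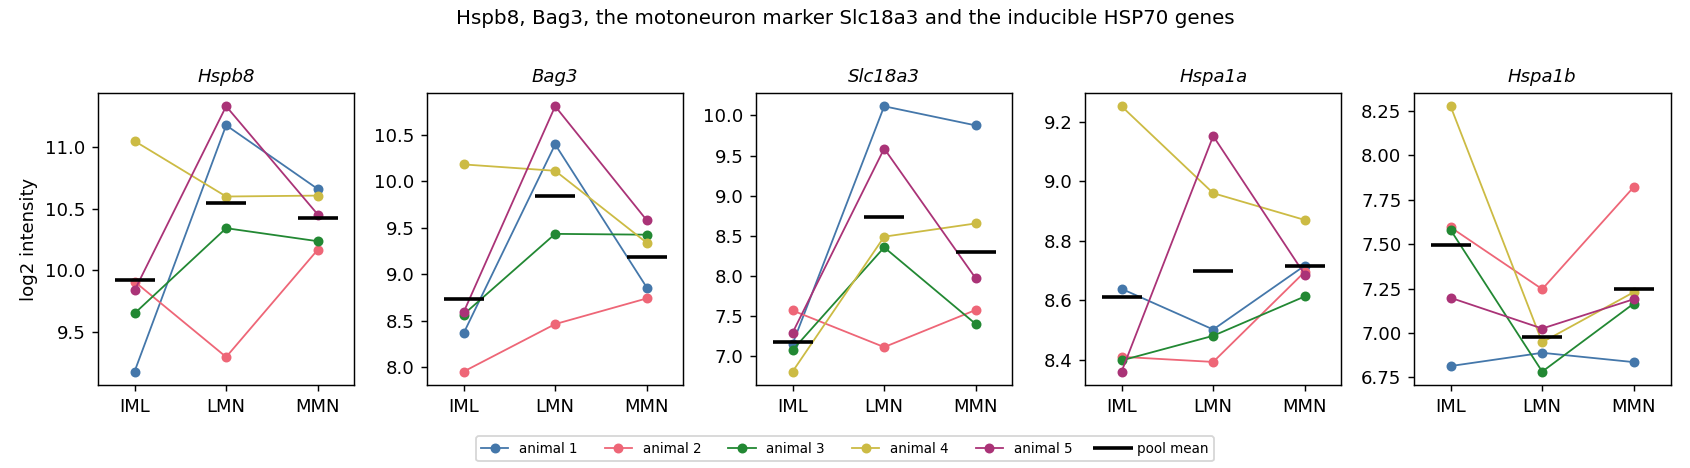
Log2 intensity of Hspb8, its partner Bag3, the motoneuron marker Slc18a3 and the inducible HSP70 genes Hspa1a and Hspa1b in the 3 pools; each line joins the samples of 1 animal and the black bar is the mean of 5 animals, with a separate axis range per gene. Animal 4 has the highest IML value of Hspb8, Bag3, Hspa1a and Hspa1b, and animal 2 the lowest LMN value of Hspb8, Bag3 and Slc18a3.

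The 37 probe sets of the DNAJ families, 27 genes, included no call between pools. Of all probe sets 5.52% were called between IML and somatic samples and 8.98% between IML and LMN. In DNAJA, the counts between IML and somatic samples were 3 below 0 of 3; in DNAJB they were 10 below 0 of 14, and in DNAJC 12 below 0 of 20. Dnaja3, the mitochondrial J-domain protein, was lower in 5 of 5 animals, by -0.17 ± 0.06 (adjusted p = 0.136). Dnaja1, a main cytosolic partner of HSC70, differed by -0.01 ± 0.06 (adjusted p = 0.948). Dnajc15, an inner-membrane J-domain protein of mitochondria, had the lowest difference of the DNAJC family. Its values were 6.62, 6.45, 6.60, 6.57 and 6.64 in IML, 6.99, 7.02, 7.49, 6.85 and 6.72 in LMN and 6.53, 6.60, 7.64, 6.70 and 6.97 in MMN. The IML samples lay between 6.45 and 6.64, below every LMN sample, but MMN overlapped them; the difference was -0.38 ± 0.12 (lower in 5 of 5 animals, adjusted p = 0.10), and animal 3 contributed -0.97 to it. Against LMN it was -0.44 (adjusted p = 0.0799, and 0.0458 without the MMN sample of animal 3). The probe set carries a suffix that marks possible binding of related transcripts.

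Of the DNAJ genes with known roles in neurons, Dnajc5, the cysteine string protein of synaptic vesicles, differed by -0.10 ± 0.04 between IML and somatic samples, lower in 5 of 5 animals (adjusted p = 0.224). Dnajb2, a neuronal J-domain protein mutated in distal motor neuropathy, differed by -0.14 ± 0.12 (adjusted p = 0.586), and Dnajb6, an inhibitor of polyglutamine aggregation, by 0.16 ± 0.12 (adjusted p = 0.524). Dnajb1 (HSP40), the stress-inducible partner of HSP70, was lower in IML than in LMN in 5 of 5 animals, and its difference from somatic samples was -0.23 ± 0.12 (adjusted p = 0.329). Its IML values were 7.49, 8.37, 8.27, 8.17 and 8.21, so that animal 1 stood apart. Dnajb13 was called lower in IML than in LMN in 2 of the other fits, with arrays centred on the median (-0.18, adjusted p = 0.0474) and without the LMN sample of animal 2 (-0.20, adjusted p = 0.0413); its main value was -0.16 with an adjusted p of 0.103. A second, dimmer probe set of Dnajb13 went the other way between IML and LMN, by 0.10 (adjusted p = 0.57 in limma).

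In mitochondria, Hspd1 (HSP60), which forms the chaperonin chamber, had the smallest adjusted p of all members between IML and somatic samples, 0.0719. Its values were 11.59, 12.24, 12.11, 11.88 and 12.10 in IML, 11.91, 12.35, 12.26, 11.89 and 12.37 in LMN and 11.83, 12.24, 12.31, 11.96 and 12.34 in MMN. The pools overlapped, but IML was below the mean of the somatic pools in 5 of 5 animals, by -0.16 ± 0.05 (1.12-fold, 95% interval -0.27 to -0.06). A second, dimmer probe set of Hspd1 differed by -0.01 (adjusted p = 0.957). The adjusted p was between 0.0805 and 0.253 when 1 animal was left out. Its co-chaperonin Hspe1 (HSP10), the lid of the chamber, had values of 9.85, 10.07, 9.97, 9.81 and 10.08 in IML, 9.68, 10.13, 10.43, 9.91 and 9.91 in LMN and 9.30, 9.92, 10.62, 9.97 and 10.22 in MMN. The difference was -0.06 ± 0.12 (adjusted p = 0.860), with no order between the pools. Hspa9 (mortalin), the HSP70 of the mitochondrial matrix, was lower in 5 of 5 animals, by -0.14 ± 0.05 (adjusted p = 0.131). Of 16 listed genes of mitochondrial folding and import, 13 were measured and none was called in limma (0 of 13, against 5.52% of all probe sets), with 11 below 0. At that share a list of this size would hold few calls. The unadjusted threshold was passed by 3, or 23.1% against 20.7% of all probe sets. Grpel1, the nucleotide exchange factor of mortalin, had the smallest adjusted p of the 13 genes, 0.0658, at -0.32 ± 0.09 and lower in 5 of 5 animals. Timm23, a subunit of the import channel, followed at -0.25 (adjusted p = 0.154).

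**Figure D4:**
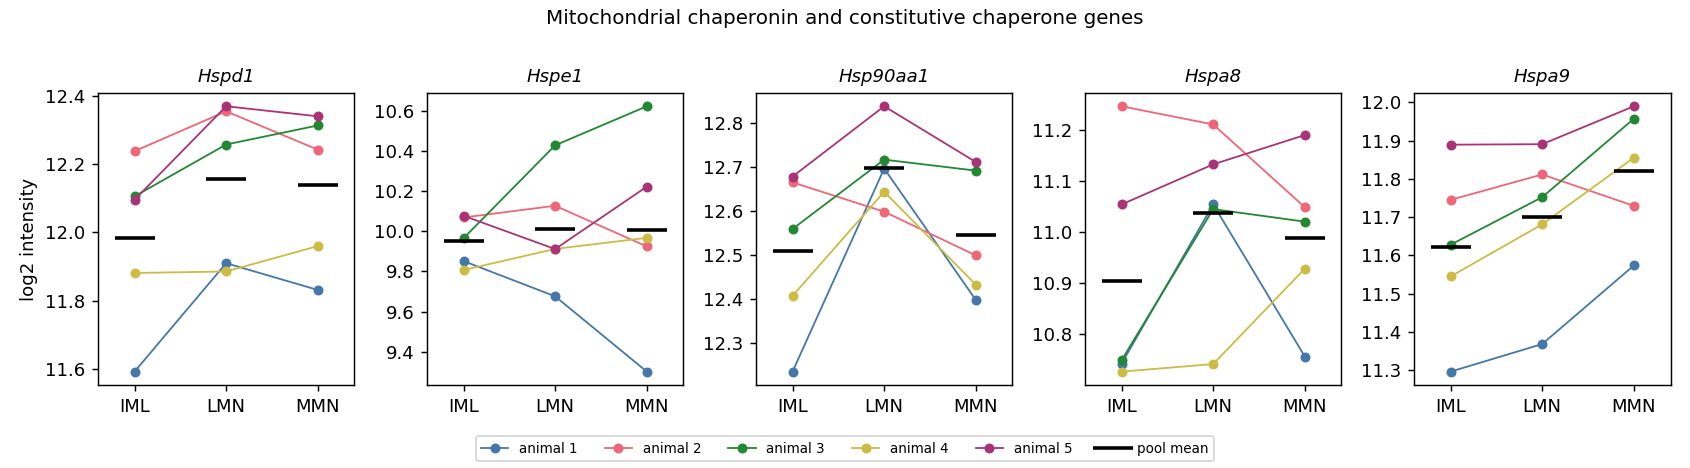
Log2 intensity of the mitochondrial chaperonin genes Hspd1 and Hspe1, of the cytosolic Hsp90aa1 and Hspa8, and of the mitochondrial Hspa9 in the 3 pools; each line joins the samples of 1 animal and the black bar is the mean of 5 animals, with a separate axis range per gene. None of the 5 differed between pools at an adjusted p under 0.05; for Hspd1 the mean was 11.98 in IML, 12.16 in LMN and 12.14 in MMN.

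Hspd1 and Hspe1 lie head to head on chromosome 1 and share a promoter, which is shown because it holds the heat shock element, the binding site of heat shock factors. The letters GAA, TTC and GAA, with 2 bases of any kind between each, were searched on both strands. They were found in 198 of 32851 windows (0.603%), or in 179 of 27025 genes (0.662%). Of the 47 member genes with a window 3 held them, Hspd1, Hspe1 and Dnajb6. The shared site, chr1:55088059-55088081 on the plus strand, begins 84 bases before the start of Hspe1, and that of Dnajb6 is at chr5:29735847-29735869 on the plus strand. The capitals mark the fixed bases.
Hspd1 and Hspe1: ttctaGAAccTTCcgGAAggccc
Dnajb6: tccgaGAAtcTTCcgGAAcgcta
A second match on the other strand overlaps the shared site, offset by 5 bases. The letters were also found in windows of the co-chaperone genes Chordc1 and Hsph1. No match elsewhere says only that these letters are not in those windows.

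The subunits of TRiC, the chaperonin that folds actin and tubulin, held no call between pools (0 of 14 in limma in each comparison, where 5.52% of all probe sets were called between IML and somatic samples, so that a set of this size would hold few calls). At the unadjusted threshold there was none between IML and LMN, MMN or both, and 1 of 14, Cct6a, between LMN and MMN (0.27, adjusted p = 0.277). The 9 genes had differences between IML and somatic samples from -0.16 for Cct3 to 0.19 for Cct4, with 6 below 0. Cct4 was 10.32, 11.06, 10.76, 9.80 and 10.24 in IML, 10.53, 10.94, 10.60, 9.41 and 9.86 in LMN and 9.57, 10.58, 10.87, 9.62 and 10.52 in MMN. IML exceeded the mean of the somatic pools in 5 of 5 animals, by 0.19 ± 0.15 (adjusted p = 0.563). For Cct2, Cct5, Cct6a, Cct7, Cct8 and Tcp1 the differences lay between -0.13 and 0.07, with adjusted p-values from 0.370 to 0.980. The 12 measured genes of 16 listed prefoldin subunits, tubulin cofactors, actins and other TRiC partners held no call either (0 of 12 in limma). At the share of 5.52% few calls would fall among them. At the unadjusted threshold there was 1, Tbcb at -0.14, or 8.33% against 20.7% of all probe sets.

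Of 17 genes with several probe sets, 11 had differences of 1 sign between IML and somatic samples. The signs differed for Cct6a, Dnajb13, Dnajb6, Dnajc2, Dnajc3 and Hspa4, none of them called. Dnajb6 differed by 0.16 in the brighter and -0.09 in the other probe set, and Dnajc3 by 0.17 in the brightest and -0.10 in the next. The 21 member probe sets with a suffix can bind related transcripts.

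Many chaperone genes differed between animals. A moderated F test over the animal terms called 48 of the 78 members (61.5%), against 47.0% of all probe sets. Among probe sets above the median mean the shares were 33 of 54 members (61.1%) and 54.0% of all, a smaller gap. Because the RNA of each sample was divided before amplification, the test was repeated on each set of 15 arrays. In both sets alone 15 members were called, 19.2% against 9.19% of all probe sets, and above the median mean 22.2% against 13.2%. They were Hsp90b1, Hspa4, Hspa5, Hspa9, Hspa14, Hspd1, Hspb2, Dnaja1, Dnajb3, Dnajb5, Dnajb9, Dnajc3, Dnajc7, Cct4 and Cct8. Which part of these differences lies in the animals and which in the handling of their captures cannot be told apart.

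The largest F was that of Dnajc3 (25.2, adjusted p = 0.00138 in limma). Its values in animals 1 to 5 were 7.94, 8.67, 8.49, 8.66 and 8.51 in IML, 7.57, 8.43, 8.47, 8.32 and 8.26 in LMN and 7.41, 8.75, 8.68, 8.52 and 8.41 in MMN. Animal 1 lay below the other 4 animals in each pool, on average 0.70 below the mean of the animals. Dnajc7, a co-chaperone of HSP70 and HSP90, came next (24.7, adjusted p = 0.00143). It had 9.82, 11.04, 10.95, 9.98 and 10.54 in IML, 10.26, 11.11, 10.94, 10.05 and 10.34 in LMN and 10.16, 10.80, 11.11, 10.28 and 10.68 in MMN. Here animals 1 and 4 were the lowest in each pool and animals 2 and 3 the highest. Hspa14 (F = 21.7), Hspd1 (21.2) and Dnaja1 (19.9) followed. Dnaja1 had 11.98, 12.63, 12.53, 12.12 and 12.58 in IML, 12.32, 12.68, 12.60, 12.22 and 12.66 in LMN and 11.74, 12.50, 12.64, 11.95 and 12.46 in MMN, again lowest in animals 1 and 4.

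This shape, below the mean in animals 1 and 4 and above it in animals 2 and 3, was noticed in the data and is given as a description. It was found in 16 of the 48 called members, 33.3%, against 18.2% of all called probe sets. Above the median mean the shares were 15 of 33 (45.5%) and 25.1%. The genes were Hsp90b1, Hspa2, Hspa4l, Hspa5, Hspa9, Hspd1, Hspe1, Dnaja1, Dnajb2, Dnajb6, Dnajc7, Dnajc9, Cct4, Cct5, Cct6a and Cct8. Cct8 had the deviations -0.63, 0.53, 0.37, -0.51 and 0.24 from the mean of the animals, and Cct4 had -0.17, 0.55, 0.43, -0.70 and -0.10. Other members had other shapes: Hspa4 was lowest in animal 2 (-0.52) and highest in animal 5 (0.59), Dnaja3 highest in animal 4 (0.37), and Hspb1 highest in animal 1 (0.26). Meningeal and fibroblast markers also varied between animals: 9 of 11 were called, 8 of them lowest in animal 4 and 7 highest in animal 2. With their mean as a covariate, 21 of 78 members were called between animals (2222 of 12422 probe sets), and their part in the remaining differences was not tested.

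**Figure D5:**
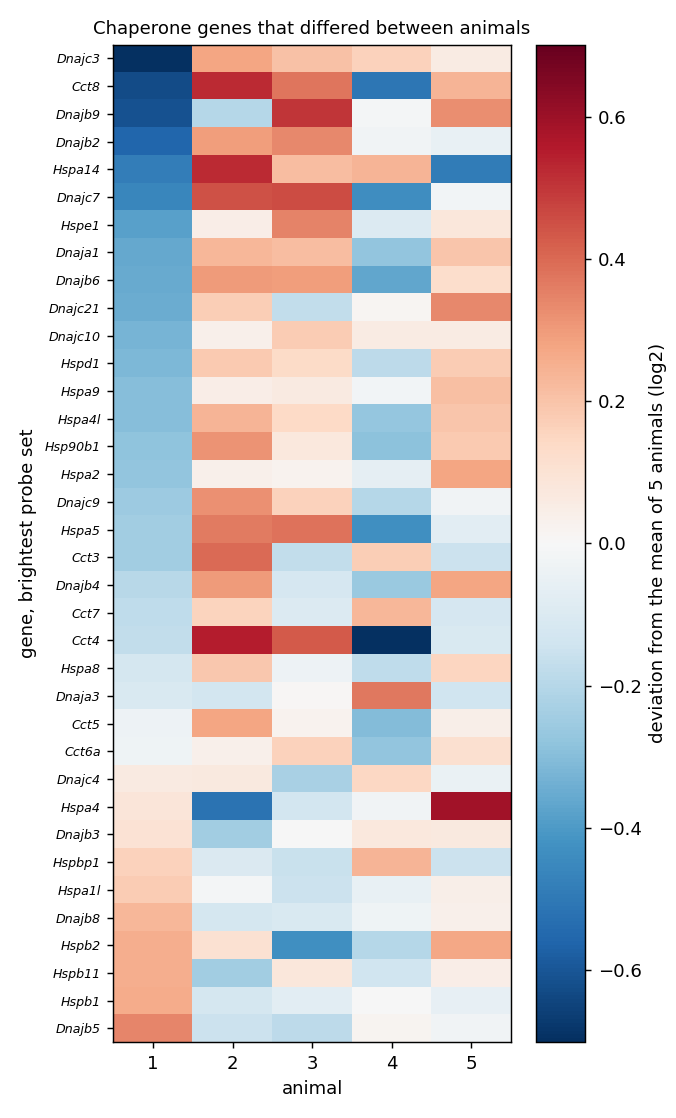
Deviation of each animal's mean over the 3 pools from the mean of the 5 animals (log2 units, colour) for the 36 genes whose brightest probe set differed between animals at an adjusted p under 0.05 in limma, ordered by the value in animal 1. Dnajc3 is lowest in animal 1 (-0.70), Cct4 in animal 4 (-0.70), and Hspa4 is highest in animal 5 (0.59).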

How the data were processed

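Each of the 30 arrays is an Affymetrix mouse array and has 1 deposited column of linear intensity values. The authors, per the labels, used a program called R-pack for normalization before converting logs back; how it normalizes, and its version, are not stated in the labels, and no detection calls were used. Of 12488 probe sets, 66 controls were left out. Gene symbols came from the platform annotation, updated through a RefSeq table of GRCm38.p6.

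Values were taken to log2, the 2 arrays per sample were averaged, and limma 3.58.1 in R 4.3.3 was fitted over all 15 samples with pool and animal as fixed terms and eBayes, two-sided, with Benjamini-Hochberg adjustment over 12422 probe sets and a threshold of 0.05. Differences carry the model's SE. Per the labels each animal gave all 3 pools, which is the pairing; deviations of samples from the same animal correlated in 15 of 15 pairs, from 0.288 to 0.747. The 5 animals limit the precision. The steps were checked on simulated data. A gene is given by its brightest probe set. Named were called members, the brightest and smallest-p probe set of each family, 29 chaperones of general interest (2 without a probe set), the 5 largest animal effects and, in each related list, called genes and the 2 smallest p-values. The members and lists were chosen with earlier results of these data known; genes outside the rule were named after their values were seen. Alternatives changed the block, the technical set, the scaling, filters, floor, variance model, threshold and covariate, or left out animals.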

Additional observations from a re-analysis of the deposited data

Results flagged for a closer look

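In 6 of 108 groups of 5 samples, from the 36 member probe sets named by rule, 1 sample lay apart from the other 4 by Dixon's criterion; chance alone flags about 1 in 20 groups. Dnajc3 was lowest in animal 1 in every pool: 7.94 in IML, where the next value was 8.49, 7.57 in LMN (next 8.26) and 7.41 in MMN (next 8.41). The IML sample of animal 1 was also the lowest for Dnajb2 (8.11, next 8.89) and Dnajb1 (7.49, next 8.17). The IML sample of animal 4 was the highest for the dimmer probe set of Hspb8 (6.38, next 5.64).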

How the results depend on the processing

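Between IML and somatic samples, 641 differences of named members were recomputed. Of these, 610 kept their direction and stayed uncalled, 30 changed sign while uncalled, and 1 became called. No member was called in this comparison in the main model, so the fits could not show whether a call holds. The call of Hsp90b1 between IML and LMN held in 9 of 18 alternatives. Between IML and LMN the count of called members was 0 with no replicate block, with the animal as a random block, in technical set 1 or 2 alone and with the fibroblast marker covariate. It was 2 with arrays centred on the median, with a floor of 32, without the LMN sample of animal 2 and without the MMN sample of animal 3 (added after the data had been seen), and 6 at a threshold of 0.10. With each animal left out in turn it was 0 to 1. Between IML and somatic samples 1 member was called at a threshold of 0.10, and 0 to 1 with an animal left out. Between animals 48 members were called in the main model, 28 and 22 in the technical sets, 31 with the floor, 21 with the covariate, 28 without the LMN sample of animal 2 and 25 to 39 with an animal left out. Over all 12422 probe sets the count also fell, from 5839 in the main model to 2847 and 2043 in technical sets 1 and 2 alone. Shares over all probe sets are not given for the other counts in this paragraph, so these are not read as results about chaperones. Between IML and MMN and between LMN and MMN every fit gave 0 of 78. With no replicate block, the paired design dropped, Hsp90b1 had an adjusted p of 0.536 between IML and LMN. With the fibroblast marker covariate Serpinh1, outside the members, turned from 1.03 to -0.25 against somatic samples and from 1.34 to -0.35 against LMN. The cause of these shifts was not tested. Low probe sets cannot be set against background, and 5 animals limit what differences of this size can show.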

Other observations

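Across the 2 technical sets, members were more often higher in set 2: the mean difference over the 15 samples was above 0 for 51 of 78 members, with a median of 0.05, against 5023 of 12422 probe sets with a median of -0.02. Every sample contributed 1 array to each set, so the pools and animals are balanced over them.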
